A study of Homo sapiens with 6 samples.

Results

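The genes described here make cholesterol and fatty acids in the cell or control the rate at which both are made. The list held 38 genes, covering the steps from acetyl-CoA to cholesterol, the sterol sensor and its transcription factors, sterol transport and storage, and fatty acid synthesis. Of these, 37 were found, by Ensembl identifiers paired with symbols, among the 23406 features of the count and FPKM tables. No identifier in the tables was paired with ACACA, which encodes acetyl-CoA carboxylase, so it has no value here. All 37 genes found passed the filter on low counts.

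The libraries came from Hep-3B, an established human hepatoma cell line, and were measured by mRNA sequencing. The shControl cells (labelled WT) carried a control shRNA and the shNXN cells (labelled NXN knockdown) an shRNA against NXN, which encodes nucleoredoxin. Both were delivered by lentivirus and selected with puromycin, and 1 library was made from each group on days 7, 9 and 11. Each group therefore had 3 libraries, 1 from each day, which bear the replicate numbers 1 to 3. The study used a pair of shRNAs against NXN in these cells. Which of them went into the sequenced libraries, and how many transductions or cultures stand behind these, is not given in the sources used here, so p-values measure the spread between these libraries, which includes the days.

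Liver cells make cholesterol from acetyl-CoA through mevalonate, farnesyl diphosphate, squalene and lanosterol. The pathway is set by SREBP transcription factors, which are held in the endoplasmic reticulum by SCAP and the INSIG proteins while sterols are plentiful. When sterols fall, SCAP carries SREBP to the Golgi, where the site-1 and site-2 proteases (MBTPS1 and MBTPS2) release its active part. SREBP2, from SREBF2, mainly drives sterol genes, and SREBP1, from SREBF1, mainly drives fatty acid genes. SREBPs act at sterol regulatory elements in promoters, usually together with NF-Y, which binds CCAAT boxes, and Sp1, which binds GC boxes.

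Promoter windows of 250 bases before the RefSeq start site (GRCh38.p14) were at hand for 34 of the 38 genes, and were searched on both strands for CACNCCA, a core of the sterol regulatory element, for CCAAT and for GGGCGG. The first lay in 10 of the 34 windows (29.4%), against 14.7% of all 35116 windows. CCAAT lay in 19 (55.9% against 32.0%) and GGGCGG in 29 (85.3% against 42.6%). All 10 windows with CACNCCA also held CCAAT, a pair found in 4.58% of all windows. Among the 16 genes with a window that rose on day 11 (below), 4 held CACNCCA, 12 held CCAAT and 15 held GGGCGG. Among the 17 tested genes with a window that were not called, the counts were 6, 7 and 13. These matches are descriptions of letters in a window, and no factor's binding was measured.

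The 6 windows below were chosen after the expression values were seen. MVK (chr12:109573544-109573793, plus strand), MVD (chr16:88663092-88663341, minus strand), SREBF2 (chr22:41832855-41833104, plus strand) and SCD (chr10:100346983-100347232, plus strand) are the 4 genes that rose on day 11 with both CACNCCA and CCAAT. HMGCS1 (chr5:43313413-43313662, minus strand) had the largest day 11 rise as counted and holds CCAAT and GGGCGG without CACNCCA. INSIG2 (chr2:118088221-118088470, plus strand) was lower in shNXN cells and holds only GGGCGG. Each runs 5′ to 3′ on the strand of the gene and ends at the base before the start site, and capitals mark the searched letters or their reverse complement.
MVK: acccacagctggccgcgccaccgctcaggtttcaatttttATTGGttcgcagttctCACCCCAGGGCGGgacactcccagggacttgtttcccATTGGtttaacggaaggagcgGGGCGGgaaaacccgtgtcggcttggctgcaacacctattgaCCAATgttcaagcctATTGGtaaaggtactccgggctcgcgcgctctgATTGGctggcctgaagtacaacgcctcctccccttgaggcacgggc
MVD: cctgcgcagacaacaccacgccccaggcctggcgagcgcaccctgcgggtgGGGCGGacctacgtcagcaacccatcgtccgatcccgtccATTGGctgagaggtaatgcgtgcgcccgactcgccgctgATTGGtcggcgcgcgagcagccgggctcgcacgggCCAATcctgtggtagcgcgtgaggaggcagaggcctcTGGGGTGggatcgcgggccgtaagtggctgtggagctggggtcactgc
SREBF2: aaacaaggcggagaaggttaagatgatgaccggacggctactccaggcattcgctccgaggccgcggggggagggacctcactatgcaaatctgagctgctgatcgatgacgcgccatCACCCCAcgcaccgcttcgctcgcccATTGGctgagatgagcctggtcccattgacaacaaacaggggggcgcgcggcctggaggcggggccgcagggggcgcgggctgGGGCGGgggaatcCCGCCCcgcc
SCD: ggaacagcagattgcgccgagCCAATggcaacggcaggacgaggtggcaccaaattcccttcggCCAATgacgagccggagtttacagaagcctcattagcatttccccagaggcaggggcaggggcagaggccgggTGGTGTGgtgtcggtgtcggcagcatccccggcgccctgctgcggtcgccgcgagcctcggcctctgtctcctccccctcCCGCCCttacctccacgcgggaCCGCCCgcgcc
HMGCS1: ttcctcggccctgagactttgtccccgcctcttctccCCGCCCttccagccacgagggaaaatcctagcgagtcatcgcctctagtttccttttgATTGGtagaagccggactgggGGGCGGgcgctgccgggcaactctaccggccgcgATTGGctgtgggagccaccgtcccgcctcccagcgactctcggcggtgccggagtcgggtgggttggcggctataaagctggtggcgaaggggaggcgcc
INSIG2: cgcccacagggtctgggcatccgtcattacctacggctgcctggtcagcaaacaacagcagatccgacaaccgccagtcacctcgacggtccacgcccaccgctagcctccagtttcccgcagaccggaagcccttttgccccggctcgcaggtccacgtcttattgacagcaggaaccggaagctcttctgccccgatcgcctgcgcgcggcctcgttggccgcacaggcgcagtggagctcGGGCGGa

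The libraries were alike in depth, with totals of 15349382 to 16332589 estimated counts, and the 37 genes had 40 to 23795 counts each in a library. NXN stood at 181, 138 and 143 CPM (counts scaled to the library total with TMM factors) in shControl cells on days 7, 9 and 11 and at 42.7, 47.5 and 39.5 CPM in shNXN cells. Its log2 fold change was -1.83 (SE, its standard error, 0.16, adjusted p = 0.0378 by edgeR), and the exact two-sided permutation test gave 0.1, the smallest p that 3 against 3 libraries allow. All 10 hepatoma markers, among them ALB and AFP, exceeded 1 CPM in every library. Their summed level was 18017 to 24431 CPM in shControl cells and 9186 to 18857 CPM in shNXN cells. On days 7 and 9, ALB, AFP, APOA1, APOB, TTR and GPC3 were lower in shNXN than in shControl cells. SERPINA1, HNF4A, KRT8 and KRT18 were higher on both days, so the markers did not move as a set. Of 9 leukocyte, endothelial and stromal markers found, CD3E, VWF and DES were at 0 in every library, and the summed level, mostly CD68, was 62.7 to 82.9 CPM against 95.8 to 104 CPM. The share of these shifts in the results below was not tested. In bulk RNA, fewer cells of a type and less RNA per cell cannot be told apart.

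FPKM, which divides fragments by length as well as by library total, compares genes. The median FPKM over the 6 libraries exceeded that of all tested features, 13.2, for 30 of the 37 genes. FDPS, which makes farnesyl diphosphate, had the highest median FPKM, 219, followed by EBP, a sterol isomerase, at 217, and by FASN, the fatty acid synthase, at 185. FDPS ranged from 156 to 317 FPKM and EBP from 190.0 to 265 FPKM, so their order is within their spread. SCD (130.4), SREBF1 (120.1) and ACLY (109) came next. The lowest medians were those of ELOVL6 (4.08), STARD4 (4.54) and LPIN1 (4.56), which also overlapped one another.

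**Figure D1:**
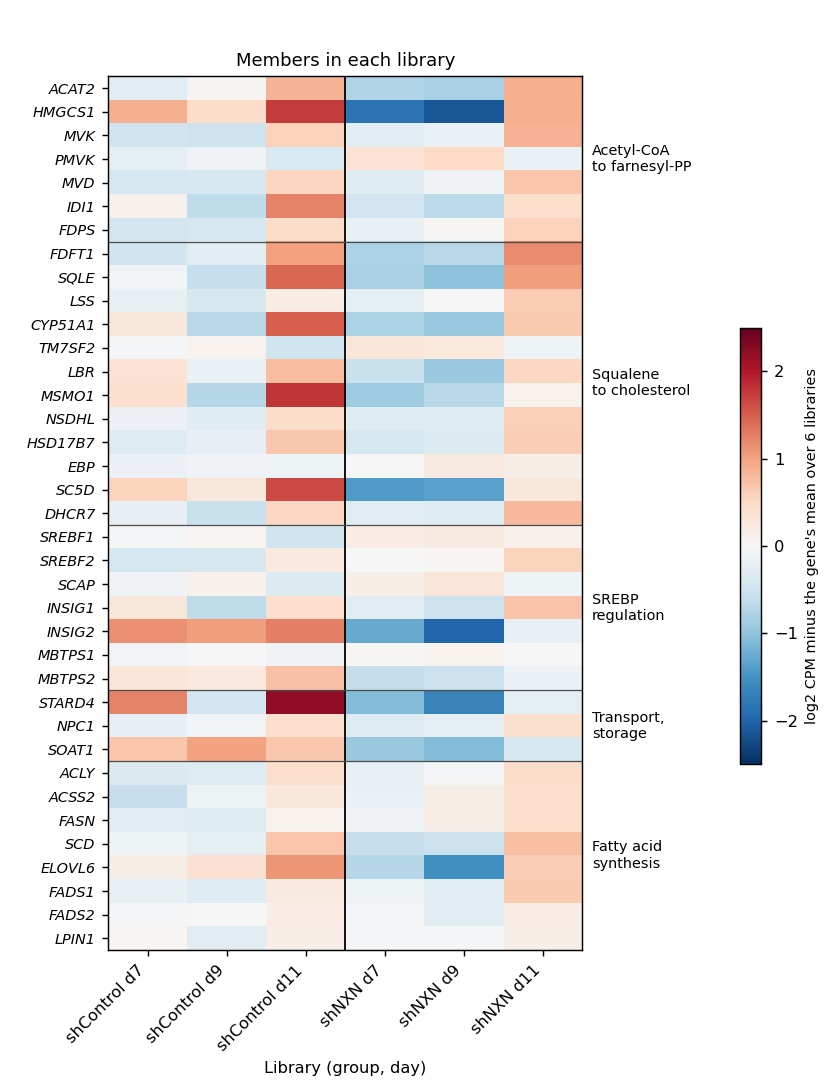
Heat map of the 37 genes (rows, by role) in the 6 libraries (columns, shControl and shNXN on days 7, 9 and 11), coloured by log2 CPM minus the mean of that gene over the 6 libraries. Both day 11 columns are redder than the columns of days 7 and 9 for most genes, and INSIG2 and SOAT1 are bluer in all 3 shNXN columns than in all 3 shControl columns.

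The comparison of shNXN with shControl cells asks what knockdown of NXN changed in these pathways. The 37 genes did not move as a group. Only INSIG2, which helps to retain SREBP in the endoplasmic reticulum, and SOAT1, which esterifies cholesterol for storage, passed the test, both lower in shNXN cells, by 4.29-fold and 2.98-fold. That is 5.41% of the 37 genes, against 3.21% of all 14071 tested features called lower. None passed as higher, against 0.185% of features, and none was higher at an unadjusted p under 0.05 by edgeR, where 11.6% of features were, while 5 were lower, where 21.3% were. DESeq2 called 0 of the 37 genes higher and 5 lower, against 6.88% and 17.1% of features. The median log2 fold change of the 37 genes was -0.01, against 0.03 for all features.

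The libraries of 1 day shared deviations from their group means, so the fit with the day as a replicate block was also read. It called 9 of the 37 genes lower, HMGCS1, SQLE, CYP51A1, LBR, SC5D, INSIG2, MBTPS2, STARD4 and SOAT1, which is 24.3% against 17.0% of all features. It called SREBF2 higher, 1 gene, against 6.28% of all features. The calls spread over the sterol pathway: 1 of 7 genes of the mevalonate steps, 4 of 12 from squalene to cholesterol, 2 of 7 regulators and 2 of 3 transport and storage genes were lower. None of the 8 fatty acid genes was called in either direction.

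These differences moved with the GC content of the transcripts. Over the 37 genes the Spearman correlation of GC content with the log2 fold change was 0.89, and over 12740 features with a known GC content it was 0.79. It is a description, since all values share the same 6 libraries. Of the 16 genes below the median GC content of tested features, 48.4%, 15 had a log2 fold change below 0, with a median of -0.82, and all 9 genes called lower with the block were among them. Of the 21 genes above it, 4 had a log2 fold change below 0, and the median was 0.22. With each library's GC trend taken out, the correlation was 0.13 and edgeR called none of the 37 genes, with the block or without it. At an unadjusted p under 0.05 there were 2 higher and 2 lower without the block, against 8.41% and 8.71% of all features, and 3 higher and 7 lower with it, against 10.6% and 10.8%. That correction left 5 features called in all, 0.00711% higher and 0.0284% lower, and 130 with the block, 0.54% higher and 0.384% lower. NXN itself kept its call, with a log2 fold change of -2.19 (SE 0.15, adjusted p = 0.00962 by edgeR). The correction takes out every group difference tied to GC content, whatever produced it.

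**Figure D2:**
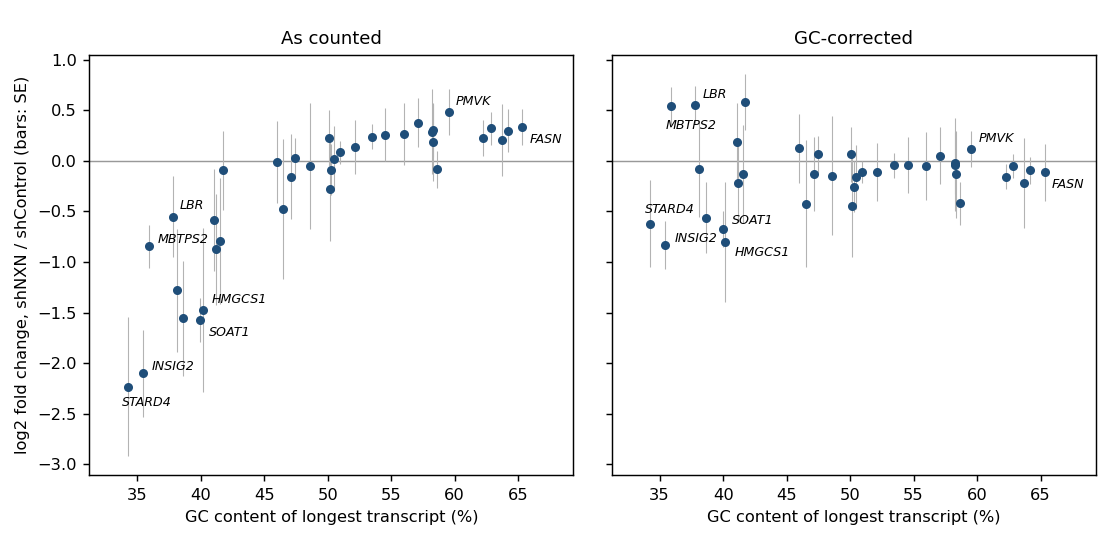
Log2 fold change of shNXN against shControl (vertical axis, bars are standard errors) by the GC content of the longest transcript in percent (horizontal axis), for 37 genes, as counted (left) and after removal of the GC trend of each library (right). On the left the genes of lowest GC content lie below 0, down to -2.23 for STARD4, and on the right no such slope is seen.

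INSIG2 stood at 58.1, 54.2 and 63.0 CPM in shControl cells on days 7, 9 and 11, and at 11.0, 6.68 and 23.2 CPM in shNXN cells. Every shNXN library lay below every shControl library, and within shNXN cells day 11 was the highest. The log2 fold change was -2.10 (SE 0.43, adjusted p = 0.0496 by edgeR), or -2.27 with the block (adjusted p = 0.0178 by edgeR) and -0.83 after GC correction (adjusted p = 0.154 by edgeR). Its close relative INSIG1, itself a classical SREBP target, did not share this pattern. INSIG1 had 21.5, 11.4 and 23.7 CPM in shControl cells and 14.6, 12.4 and 29.1 CPM in shNXN cells, and its log2 fold change was -0.01 (SE 0.41). The difference between the paralogs was not tested, and the 2 transcripts differ in GC content, 35.4% for INSIG2 and 46.0% for INSIG1.

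SOAT1 stood at 121, 149.7 and 119 CPM in shControl cells and at 39.0, 35.2 and 56.4 CPM in shNXN cells. Again the groups did not overlap, and within shNXN cells day 11 was again the highest. The log2 fold change was -1.57 (SE 0.22, adjusted p = 0.0412 by edgeR) and -0.67 after GC correction (adjusted p = 0.130 by edgeR). In the FPKM table the 2 calls persisted by limma on log2(FPKM + 1), at -2.48 for INSIG2 (adjusted p = 0.0454) and -2.50 for SOAT1 (adjusted p = 0.0493), but not with a pseudocount of 0.1 (adjusted p = 0.0513 and 0.0528 by limma).

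Both calls rest on few libraries. Leaving out shControl replicate 1, shControl replicate 3, shNXN replicate 1 or shNXN replicate 2 left 0 features called over the whole table, NXN included, and leaving out shControl replicate 2 kept SOAT1 and lost INSIG2 (adjusted p = 0.0611 by edgeR), with 1.69% of all features lower. Without shNXN replicate 3, 8 of the 37 genes were lower (21.6%) and 1 was higher (2.7%), against 21.4% and 4.4% of all features.

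STARD4, a carrier that moves cholesterol between membranes, had the lowest log2 fold change, -2.23 (SE 0.69, adjusted p = 0.0859 by edgeR). It stood at 18.4, 5.60 and 36.5 CPM in shControl cells and at 3.71, 2.45 and 6.70 CPM in shNXN cells. It was lower on each day, but the day 9 shControl library lay below the day 11 shNXN library, so the groups overlapped. With the block it fell by 2.02 on the log2 scale (adjusted p = 0.0185 by edgeR), and after GC correction the value was -0.62 (adjusted p = 0.535 by edgeR). NPC1, which exports cholesterol from lysosomes, was at 55.3 to 92.7 CPM in both groups, with a log2 fold change of -0.09 (SE 0.26).

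In the mevalonate steps, HMGCS1, the synthase that makes HMG-CoA, was the only gene called in the fit with the block. It stood at 187, 138 and 339.6 CPM in shControl cells and at 28.3, 23.1 and 187 CPM in shNXN cells. The shNXN libraries of days 7 and 9 were far below all shControl libraries, whereas that of day 11 reached the shControl level of day 7. The log2 fold change was -1.48 (SE 0.81, adjusted p = 0.237 by edgeR), with the block -2.05 (SE 0.41, adjusted p = 0.0293 by edgeR), and after GC correction -0.80 (adjusted p = 0.573 by edgeR). PMVK, the phosphomevalonate kinase, stood at the other end, with the highest log2 fold change of the 37 genes, 0.49 (SE 0.23, adjusted p = 0.185 by edgeR). It had 15.1, 16.6 and 13.6 CPM in shControl cells and 22.8, 24.9 and 15.7 CPM in shNXN cells, and the groups overlapped through its day 11 library. The other 5 genes of these steps had log2 fold changes between -0.58 (IDI1) and 0.29 (MVK), none of which passed with or without the block.

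Between squalene and cholesterol, SC5D, the sterol desaturase late in the pathway, had the lowest log2 fold change. It stood at 26.3, 21.7 and 55.9 CPM in shControl cells and at 6.69, 6.99 and 21.6 CPM in shNXN cells. The highest shNXN library was just below the lowest shControl library. Its log2 fold change was -1.56 (SE 0.56, adjusted p = 0.115 by edgeR), with the block -1.65 (SE 0.18, adjusted p = 0.0142 by edgeR) and after GC correction -0.56 (adjusted p = 0.488 by edgeR).

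SQLE, squalene epoxidase, a rate-controlling enzyme, stood at 52.8, 37.3 and 151 CPM against 31.8, 27.3 and 114 CPM, and was lower in shNXN cells on each day. CYP51A1, the lanosterol demethylase, stood at 73.6, 37.2 and 169 CPM against 35.1, 31.3 and 95.3 CPM. For both the differences between days were larger than those between groups. Their log2 fold changes were -0.48 and -0.79 without a call, and with the block -0.53 (adjusted p = 0.0403 by edgeR) and -0.72 (adjusted p = 0.0465 by edgeR).

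LBR, which is both a lamin B receptor and a sterol reductase, stood at 134, 92.6 and 178 CPM against 70.7, 55.2 and 150.0 CPM. Its log2 fold change was -0.55 in counts (SE 0.40), -0.64 with the block (adjusted p = 0.0448 by edgeR), 0.55 after GC correction (adjusted p = 0.208 by edgeR) and 0.40 on the log2(FPKM + 1) scale (adjusted p = 0.169 by limma), so that its direction depends on the measure. TM7SF2, the other sterol reductase for the same step, had a log2 fold change of 0.30 (SE 0.21).

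EBP was steady in shControl cells, at 108, 111 and 109.6 CPM, and stood at 118, 138 and 131 CPM in shNXN cells. All 3 shNXN libraries lay above all shControl libraries, but the log2 fold change of 0.24 (SE 0.12, adjusted p = 0.211 by edgeR) was not called and turned to -0.04 after GC correction. LSS, which closes the sterol ring, stood at 113, 97.3 and 147 CPM against 110.0, 129 and 202 CPM, with a log2 fold change of 0.30 (SE 0.26, adjusted p = 0.431 by edgeR) that turned to -0.02 after GC correction. FDFT1, NSDHL, DHCR7, HSD17B7 and MSMO1 were not called, with log2 fold changes from -1.28 (MSMO1) to 0.19 (DHCR7). HSD17B7 has a near-identical pseudogene, and its counts are uncertain.

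Among the regulators, SREBF2 stood at 159, 159.8 and 251 CPM in shControl cells and at 211, 218 and 311 CPM in shNXN cells. It was higher in shNXN cells on each day. The log2 fold change was 0.38 (SE 0.24, adjusted p = 0.296 by edgeR), with the block 0.39 (SE 0.10, adjusted p = 0.0434 by edgeR) and after GC correction 0.05 (adjusted p = 0.958 by edgeR).

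SREBF1 stood at 308, 329 and 227 CPM against 362, 372 and 347 CPM, with no overlap between the groups. Its log2 fold change of 0.32 (SE 0.16, adjusted p = 0.202 by edgeR) was not called with the block either (adjusted p = 0.0908 by edgeR), and was -0.05 after GC correction.

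MBTPS2, the site-2 protease, stood at 45.8, 44.3 and 61.6 CPM against 24.6, 25.9 and 33.9 CPM, again with no overlap. Its log2 fold change was -0.85 (SE 0.21, adjusted p = 0.0645 by edgeR), with the block -0.84 (adjusted p = 0.0183 by edgeR), but 0.54 after GC correction (adjusted p = 0.206 by edgeR). MBTPS1, the site-1 protease that cuts first, was at 154 to 174 CPM in every library, with a log2 fold change of 0.09 (SE 0.11). SCAP had a log2 fold change of 0.22 (SE 0.18).

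The 8 fatty acid genes had log2 fold changes from -0.88 (ELOVL6) to 0.34 (FASN). FASN stood at 932, 922 and 1212 CPM in shControl cells and at 1074, 1262 and 1534 CPM in shNXN cells. It was higher on each day, but the groups overlapped, and the log2 fold change of 0.34 (SE 0.18, adjusted p = 0.227 by edgeR, 0.0607 with the block) became -0.11 after GC correction. ELOVL6, which elongates palmitate, had 12.2 to 23.9 CPM in shControl cells against 3.80 to 17.01 CPM in shNXN cells. FADS1 and FADS2, the fatty acid desaturases, overlap on opposite strands in GENCODE 29, so their counts are uncertain.

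**Figure D3:**
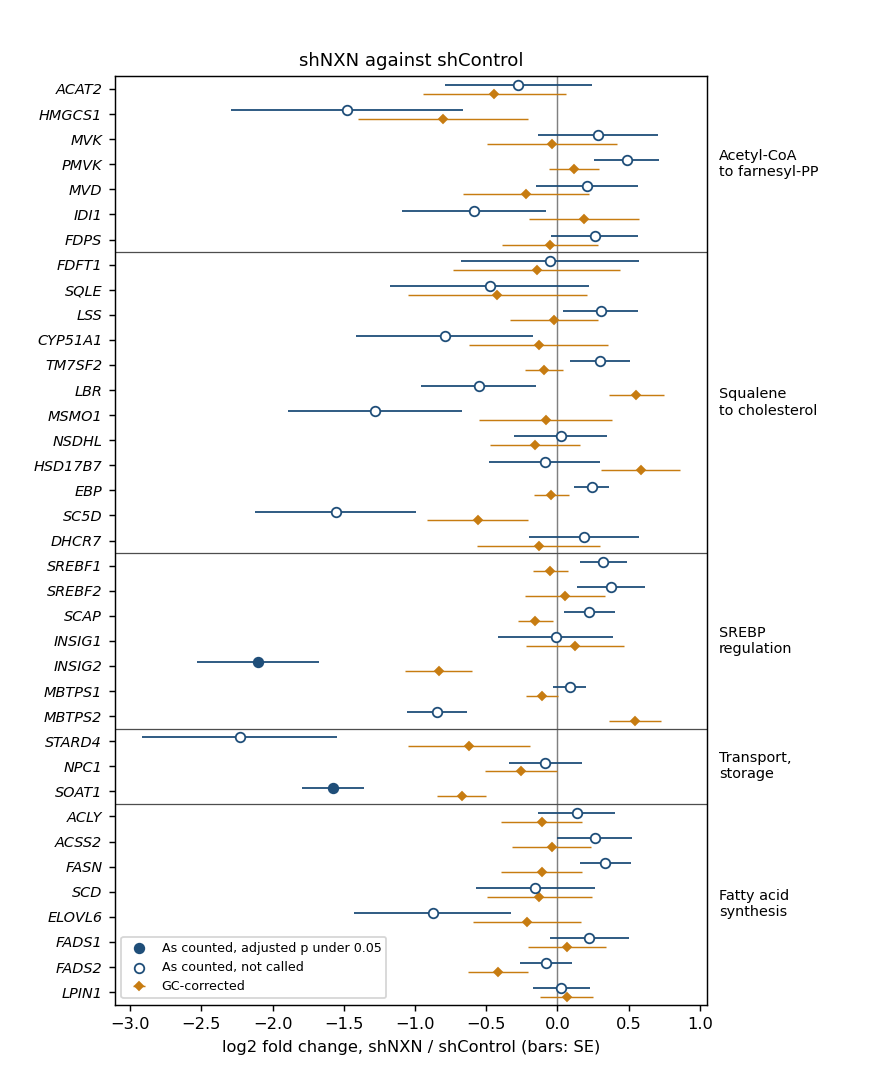
Log2 fold change of shNXN against shControl for 37 genes by role (horizontal axis, bars are standard errors, n = 3 libraries per group), as counted (circles, filled where the adjusted p was under 0.05) and after GC correction (diamonds). The 2 filled circles are INSIG2 and SOAT1, and the diamonds lie closer to 0 than the circles for both.

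Counted by overlap alone, 4 of the 37 genes (SC5D, INSIG2, MBTPS2 and SOAT1) had all shNXN libraries below all shControl libraries, where 21.5% of all features did, and 2 (EBP and SREBF1) had all above, where 19.0% did. Both shares are below those of all features. Without day 11, with 2 libraries a group, 17 genes were below and 12 above, 45.9% and 32.4% against 37.4% and 35.4% of all features.

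Read by day, with 1 library per group and no test, the median log2 difference of shNXN from shControl over the 37 genes was -0.11, 0.01 and 0.06 for days 7, 9 and 11, and after GC correction -0.16, -0.06 and -0.12. On all 3 days 14 genes were lower and 14 were higher in shNXN cells, and 9 changed sign between days. The same was not counted over all features, so these numbers only describe the list. HMGCS1 differed most by day, by -2.72, -2.57 and -0.86, and INSIG2 was nearest to the shControl level on day 11, with -1.44. Without both day 11 libraries, 10 of the 37 genes were called lower and 2 higher, among 23.8% and 7.99% of all features. Whether the difference between the groups itself changed on day 11 was asked with an interaction term. It called 0 of the 37 genes by edgeR, against 0.0355% of features called higher and 0.0% lower, with 4 genes at an unadjusted p under 0.05, where 12.1% of features were higher and 1.28% lower. DESeq2 called 1 gene, against 3.08% of features higher and 0.15% lower. The lowest adjusted p was that of HMGCS1, 0.101 by edgeR, for an interaction of 1.80 (SE 0.32) on the log2 scale.

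The largest common movement of these genes was between days and not between groups. The comparison of day 11 with days 7 and 9 was added after the values had been seen, and it sets 2 libraries, 1 of each group, against 4, with the group as a covariate. On day 11, 19 of the 37 genes were called higher, 51.4% against 2.88% of all features, and none lower, against 2.45%. At an unadjusted p under 0.05, 2 were lower by edgeR, where 13.1% of features were (18.1% were higher), and DESeq2 called 25 higher and 1 lower, against 10.1% and 9.25%. The median log2 fold change of the 37 genes was 0.79, against 0.07 for all features. It was 0.67 within shControl cells and 0.88 within shNXN cells, against 0.01 and 0.09 for all features. After GC correction the order turned, with 0.74 within shControl cells and 0.65 within shNXN cells, against 0.02 and 0.002 for all features. On day 11, 30 of the 37 genes in shControl cells and 31 in shNXN cells exceeded both other days. Of the 14071 features tested, 5549 and 6841 did.

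The rise was seen from end to end of the sterol pathway. It was called for 6 of 7 mevalonate genes (median log2 fold change 1.09) and 8 of 12 genes from squalene to cholesterol (0.98). It was called for 3 of 8 fatty acid genes (0.60), 1 of 7 regulators (0.44) and 1 of 3 transport and storage genes (0.62). Here too the change moved with GC content, in the opposite direction to that between groups, with a Spearman correlation of -0.57 over the 37 genes and -0.58 over the 12740 features. After GC correction 17 of the 37 genes were called higher, against 1.52% of all features, and none lower, against 1.37%, and 16 of the 17 were called without it too. IDI1, CYP51A1 and HSD17B7 lost their calls and FASN gained one, while the median was 0.74. By role the corrected medians were 1.22 for the mevalonate genes and 0.87 from squalene to cholesterol. They were 0.72 for the fatty acid genes and 0.65 for transport and storage. For the regulators the corrected median was -0.01, against 0.01 for all features, so as a set they did not share the rise after correction. The sum of the hepatoma markers moved on day 11 too, in opposite directions in the groups. It was 19835 and 24431 CPM on days 7 and 9 and 18017 CPM on day 11 in shControl cells. In shNXN cells it was 9940 and 9186 CPM and then 18857 CPM. ALB, AFP, APOB and GPC3 moved as the sum did. KRT8 and KRT18 rose on day 11 in both groups, and APOA1, TTR and HNF4A fell in both. SERPINA1 had 1367, 1387 and 1226 CPM on days 7, 9 and 11 in shControl cells, a fall on day 11. In shNXN cells it had 2073, 1541 and 1801 CPM, so day 11 lay between the other days. The part of these markers in the day 11 rise of the listed genes was not tested.

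**Figure D4:**
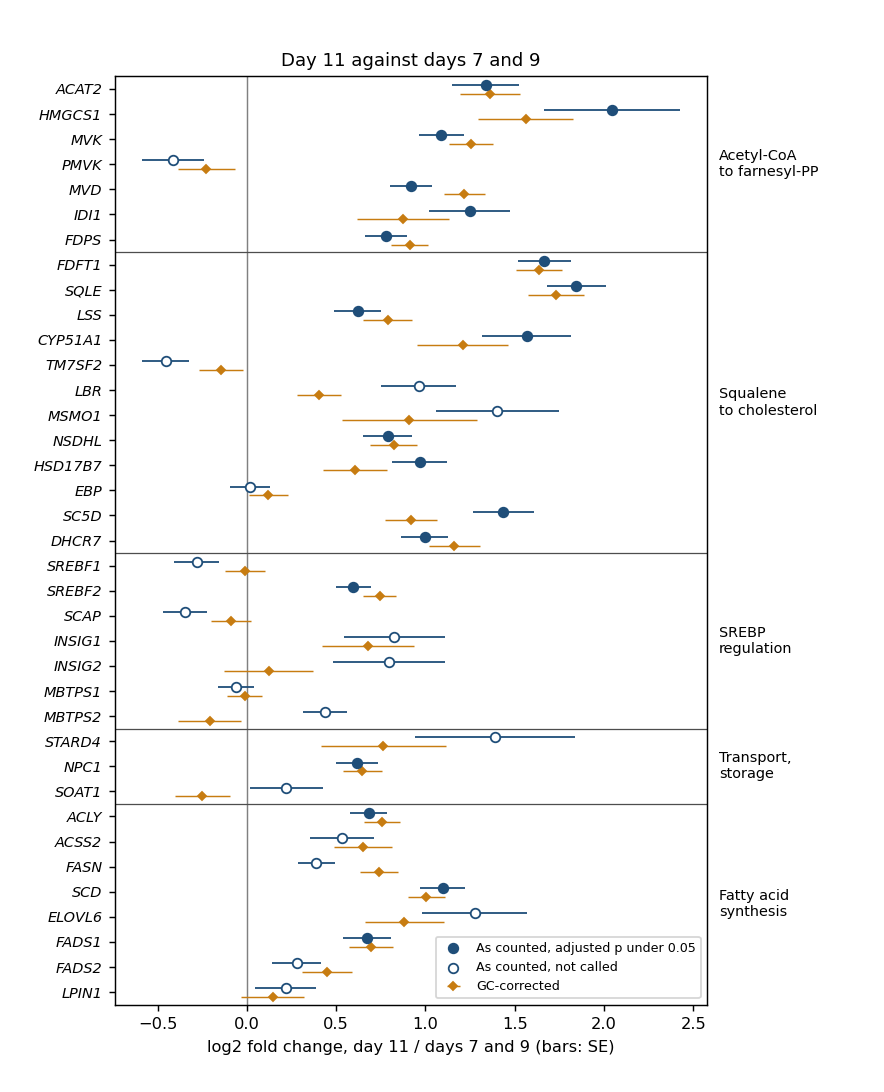
Log2 fold change of day 11 against days 7 and 9 for 37 genes by role (horizontal axis, bars are standard errors, 2 against 4 libraries), as counted (circles, filled where the adjusted p was under 0.05) and after GC correction (diamonds). The filled circles, 19 genes, all lie above 0, most of them in the top 2 role groups, and circles and diamonds lie close together for FDFT1, SQLE and MVK.

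As counted, HMGCS1 had the largest log2 fold change on day 11 among the 37 genes, 2.05 (SE 0.38, adjusted p = 0.0436 by edgeR), with a rise of 1.08 in shControl cells and 2.87 in shNXN cells. Its size depended on single libraries, at 1.07 without shNXN replicate 3 (adjusted p = 0.0511 by edgeR) and 2.78 without shControl replicate 3 (adjusted p = 0.00648 by edgeR), and after GC correction it was 1.56, below SQLE (1.73) and FDFT1 (1.63). ACAT2, which joins acetyl-CoA units at the start of the pathway, stood at 81.4, 103 and 179 CPM in shControl cells and at 58.9, 56.0 and 186 CPM in shNXN cells. Both day 11 libraries were well above the other 4, and the log2 fold change was 1.34 (SE 0.19, adjusted p = 0.0318 by edgeR). MVK, the mevalonate kinase, stood at 20.8, 20.6 and 43.9 CPM and at 24.2, 26.2 and 53.8 CPM. It rose by nearly the same amount in both groups, 1.08 and 1.09 on the log2 scale (1.09 in the fit, SE 0.13, adjusted p = 0.0281 by edgeR). MVD, which decarboxylates mevalonate diphosphate, stood at 48.7, 50.4 and 96.0 CPM and at 53.9, 62.9 and 108 CPM, a log2 fold change of 0.92 (SE 0.12, adjusted p = 0.0281 by edgeR). IDI1, the isopentenyl diphosphate isomerase, and FDPS followed with 1.25 and 0.78. IDI1 stood at 41.0, 24.5 and 90.4 CPM and at 27.5, 24.2 and 52.3 CPM, and FDPS at 139, 142 and 262 CPM and at 168, 196 and 286 CPM. PMVK alone of these steps was not higher, with -0.41 (SE 0.17, adjusted p = 0.162 by edgeR).

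FDFT1, the squalene synthase that commits farnesyl diphosphate to sterols, stood at 63.7, 74.9 and 183 CPM in shControl cells and at 52.0, 55.5 and 203 CPM in shNXN cells. Day 11 was far apart from the other days in both groups, and the groups were close. The log2 fold change was 1.67 (SE 0.15, adjusted p = 0.0197 by edgeR), or 193 ± 14.1 CPM (SD, n = 2) against 61.5 ± 10.2 CPM (SD, n = 4).

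SQLE rose by 1.85 (SE 0.17, adjusted p = 0.0197 by edgeR), a 3.59-fold change, and CYP51A1 by 1.57 (SE 0.25, adjusted p = 0.0360 by edgeR). SC5D rose by 1.44 (SE 0.17, adjusted p = 0.0281 by edgeR), although its day 11 shNXN library did not exceed the earlier shControl libraries.

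DHCR7, the last reductase before cholesterol, stood at 93.6, 73.8 and 156 CPM and at 90.3, 87.7 and 189.9 CPM, and rose from 86.3 ± 8.71 CPM (SD, n = 4) to 173 ± 24.2 CPM (SD, n = 2), with an adjusted p of 0.0281 by edgeR. HSD17B7, NSDHL and LSS rose by 0.97, 0.79 and 0.62. MSMO1 and LBR had log2 fold changes of 1.40 and 0.96 but adjusted p values of 0.0607 and 0.0514 by edgeR. EBP stood apart with 0.02 (SE 0.11), and TM7SF2 had -0.45 (SE 0.13, adjusted p = 0.0816 by edgeR).

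Of the regulators, SREBF2 was called, with a rise of 0.60 (SE 0.10, adjusted p = 0.0367 by edgeR) that was 0.66 in shControl and 0.54 in shNXN cells. SREBF1 (-0.28), SCAP (-0.35) and MBTPS1 (-0.06) had log2 fold changes below 0, none of them called. INSIG1 (0.83) and INSIG2 (0.80) were not called, and after GC correction they stood at 0.68 and 0.12. NPC1 rose by 0.62 (SE 0.12, adjusted p = 0.0436 by edgeR), whereas SOAT1 had 0.22 (SE 0.20).

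The fatty acid genes called on day 11 were SCD, ACLY and FADS1. SCD, the stearoyl-CoA desaturase, stood at 703, 635 and 1224 CPM in shControl cells and at 507, 519.8 and 1273 CPM in shNXN cells, a log2 fold change of 1.10 (SE 0.12, adjusted p = 0.0281 by edgeR). ACLY, which makes cytosolic acetyl-CoA from citrate, stood at 325, 332 and 565 CPM and at 368, 401 and 573 CPM, a log2 fold change of 0.68 (SE 0.10, adjusted p = 0.0332 by edgeR). In both genes the day 11 libraries of the groups nearly coincided. FADS1 rose by 0.67 (SE 0.13, adjusted p = 0.0459 by edgeR). FASN had 0.39 (SE 0.10, adjusted p = 0.0663 by edgeR), and 0.74 after GC correction (adjusted p = 0.0223 by edgeR). ELOVL6, ACSS2, FADS2 and LPIN1 had log2 fold changes from 0.22 to 1.28, none of them called.

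**Figure D5:**
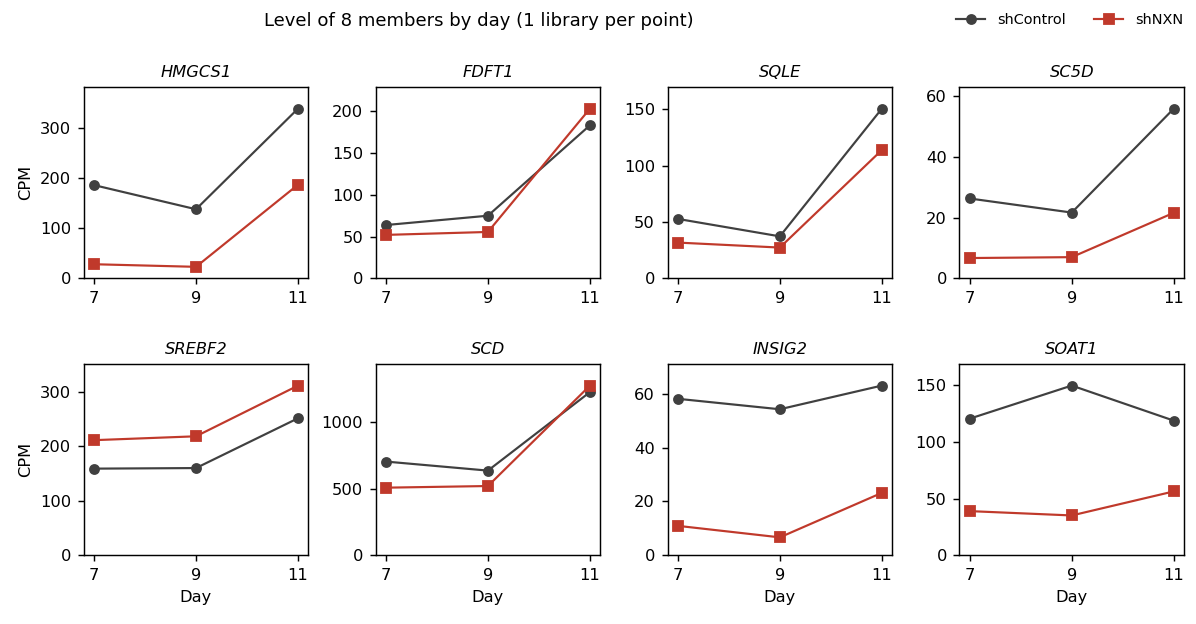
Level in CPM (vertical axes, from 0) of 8 genes on days 7, 9 and 11 (horizontal axes) in shControl (grey circles) and shNXN cells (red squares), 1 library per point. HMGCS1, FDFT1, SQLE, SC5D, SREBF2 and SCD are highest on day 11 in both groups, while INSIG2 and SOAT1 are lower in shNXN cells on each day.

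By overlap alone, 24 of the 37 genes had both day 11 libraries above the other 4, where 10.9% of all features did, and TM7SF2 and SCAP had both below, where 11.5% of features did. The day 11 calls rest on few libraries too. Without shNXN replicate 1 or shNXN replicate 2, 0 features were called over the whole table. Without shControl replicate 1 or shNXN replicate 3, 10 of the 37 genes were called higher, against 0.824% and 1.12% of all features, and without shControl replicates 2 and 3 in turn, 19 and 15, against 2.42% and 7.23%. The median of the 37 genes stayed between 0.66 and 0.81 over all 6. The day and anything else that differed between the harvests cannot be told apart, since 1 library was made per group and day.

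Of 52 related genes of sterol handling and lipogenesis outside the list, 49 were tested. In shNXN cells RNF139, a sterol-regulated ubiquitin ligase, ELOVL7 and HACD3, a fatty acid elongase and a dehydratase of elongation, were lower (6.12%) and MID1IP1, which promotes acetyl-CoA carboxylase assembly, was higher (2.04%), against 3.21% and 0.185% of all features. With the block, 12 were lower and 5 higher, 24.5% and 10.2% against 17.0% and 6.28% of all features, and after GC correction none was called. RNF139 stood at 48.4, 49.5 and 34.2 CPM in shControl cells and at 14.1, 12.1 and 21.7 CPM in shNXN cells, and ELOVL7 at 26.7, 18.2 and 30.2 CPM against 7.55, 9.25 and 12.2 CPM. The 6 with the smallest p with the block were ELOVL5, MID1IP1, ACSL3, HACD3, ACSL4 and ELOVL7. HACD3 stood at 296, 269.8 and 261 CPM in shControl cells and at 122, 119 and 158 CPM in shNXN cells, a log2 fold change of -1.05 (SE 0.15, adjusted p = 0.0430 by edgeR). MID1IP1 stood at 56.1, 73.5 and 57.2 CPM against 108, 148 and 104 CPM, a log2 fold change of 0.95 (SE 0.19, adjusted p = 0.0496 by edgeR). For both the groups did not overlap. ELOVL5, ACSL3, ACSL4 and ELOVL7 had log2 fold changes with the block of -1.19, -0.80, -1.19 and -1.37.

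On day 11, 7 of the 49 related genes were higher and 3 were lower, 14.3% and 6.12%, against 2.88% and 2.45% of all features. The higher genes were PAQR3, TMEM97, ELOVL5, HSD17B12, ACSL3, ACSL5 and PLIN2. ACSL5, an acyl-CoA synthetase, had 9.24, 14.7 and 74.7 CPM in shControl cells and 11.7, 8.46 and 35.6 CPM in shNXN cells, a log2 fold change of 2.25 (SE 0.27, adjusted p = 0.0281 by edgeR). PLIN2, which coats lipid droplets, had 395, 437 and 912 CPM against 550.3, 386 and 813 CPM.

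The lower genes were MLXIPL, LPIN3 and DGAT1. MLXIPL, which encodes ChREBP, the sugar-responsive activator of lipogenic genes, had 24.7, 26.2 and 9.14 CPM in shControl cells and 35.8, 42.0 and 13.9 CPM in shNXN cells. Both day 11 libraries lay below the other 4, and the log2 fold change was -1.48 (SE 0.16, adjusted p = 0.0281 by edgeR). After GC correction 3 related genes were higher and 2 lower, 6.12% and 4.08% against 1.52% and 1.37% of all features.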

How the data were processed

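RNA of 3 shControl and 3 shNXN Hep-3B libraries was analysed from the estimated counts and the FPKM values that the authors deposited for 23406 features. The counter, aligner and annotation are not given in the sources used here, and the only builds in the submitters' processing notes, GRCm38 and mm10, are mouse builds, although the identifiers are human. The deposited estimated counts were not whole for 15.1 to 18.8% of features, and were rounded. How reads that match several genes were counted is not given, so paralogs are uncertain. FPKM values deposited by the authors depend on their transcript lengths. There were 0 columns without a sample. Symbols were found for 19433 of 20314 Ensembl identifiers.

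Counts were tested with edgeR 4.0.16 (R 4.3.3), TMM factors, filterByExpr and the quasi-likelihood test, and called at a Benjamini-Hochberg adjusted p under 0.05 over 14071 features. The standard error was the log2 fold change divided by the square root of F. The GC correction removed a spline with 5 degrees of freedom per library, with GC content taken from the longest GENCODE 29 transcript (90.5% of tested features). Alternatives were DESeq2 1.42.0, limma 3.58.1 on log2(FPKM + 1) and log2(FPKM + 0.1), RLE factors, library size only, other filters, the replicate block, no day 11, and each library left out. Replicate numbers follow the days in the labels, and same-day deviations correlated at 0.30, 0.31 and 0.45, against -0.37 to 0.15 between days, so the block was read as a pairing. Deviations were taken from the mean of each group, so these correlations are not independent and do not test the pairing. In simulated data for the group comparison, over 13929 genes, 63.3% of genes with a simulated log2 change of 1 and 100% of those with 2 were recovered, with 10 false calls. For day 11 (13926 genes) these were 57.3%, 97.1% and 19. The simulated libraries had no GC trend and, for the group comparison, no difference between days. Whether these rates hold for the measured libraries, which differ by day and in GC trend, was not tested. Listed genes are given with values in each library where called between groups with or without the block, where the groups did not overlap, or where among the 5 highest or lowest; of the related genes, the 6 with the smallest p with the block are named. RNF139 and all genes described for day 11 were chosen after their values were seen, and not every one of these has values in each library. The members and lists were chosen with earlier results of these data known. Scripts ran under Python 3.11.15.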

Additional observations from a re-analysis of the deposited data

How the results depend on the processing

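For shNXN against shControl the number of features called, 477, was 929 with library size only, 826 with RLE factors, 3311 by DESeq2, 818 without a filter, 287 by limma on log2(FPKM + 1), 66 on log2(FPKM + 0.1), 3272 with the replicate block, 4519 without day 11, 5 with GC correction and 130 with both the block and GC correction. The 2 lower genes of the list became 5 by DESeq2, 9 with the block, 10 without day 11, and 0 with GC correction, with the block and GC correction together, or on log2(FPKM + 0.1). Higher genes numbered 1 with the block and 2 without day 11. Related genes called numbered 12 by DESeq2, 17 with the block, 22 without day 11, 1 on log2(FPKM + 0.1), and 0 with GC correction, alone or with the block. The median of the list was -0.11 with GC correction, -0.12 without day 11, and 0.17 and 0.18 on the FPKM scales with pseudocounts of 1 and 0.1. Without day 11, 17 genes were lower and 12 higher with no overlap between the groups, where 37.4% and 35.4% of all features were. The median difference on day 7 was 0.10 and 0.11 on the FPKM scales, and that on day 11 was -0.12 with GC correction.

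Single genes turned in sign with GC correction, EBP to -0.042, FASN to -0.11, LBR to 0.55, LSS to -0.022, MBTPS2 to 0.54 and SREBF1 to -0.049, and with GC correction and the block, CYP51A1 to 0.021, EBP to -0.045, FASN to -0.084, LBR to 0.55, LSS to -0.069, MBTPS2 to 0.53 and SREBF1 to -0.048. LBR was 0.40 on both FPKM scales. Removal of the GC trend is the construction of that alternative, and the cause of the other changes was not tested.

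For day 11 the 750 features became 2670 by DESeq2, 407 with GC correction, 1132 with library size only, 1200 without a filter, 349 and 331 on the FPKM scales, and 1 with the group left out of the model. The 19 higher genes became 11 on both FPKM scales and 0 with the group left out, and 1 was lower by DESeq2. Related genes called were 20 by DESeq2, 5 with GC correction, 4 on both FPKM scales and 0 with the group left out. The median was 0.62 and 0.65 on the FPKM scales, where 1 gene was lower without overlap in FPKM, a share not counted over all features. The interaction had 366 features and 1 gene of the list by DESeq2, and 0 features with GC correction.

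With each library left out in turn, features called ran from 0 to 3706 between groups and from 0 to 1225 for day 11, lower genes of the list between groups from 0 to 8 and higher from 0 to 1, higher genes on day 11 from 0 to 19, and related genes from 0 to 18 and from 0 to 13. Genes without overlap ran from 4 to 17 (lower) and 2 to 8 (higher) between groups, and from 2 to 5 and 24 to 29 for day 11. The shares over all features were not counted with single libraries left out, so these ranges only describe the list. Such shares rise with fewer libraries, from 21.5% and 19.0% of all features with all libraries to 37.4% and 35.4% between groups without day 11. The list's median ran from -0.35 to 0.23 between groups and from 0.66 to 0.81 for day 11. NXN ran from -1.90 to -1.67, and SQLE between groups from -1.44 to 0.39. A group left with 2 libraries was assumed to vary like the other. Libraries held 15349382 to 16332589 counts, and no alternative varied the depth.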
